A study of Mus musculus with 8 samples.

Results

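The mitochondrial ribosomal proteins examined here are the protein-coding genes whose GENCODE M21 symbol starts with Mrpl or Mrps followed by a digit and that were listed in all 8 libraries. There were 76 such genes among the 24860 genes listed, 48 of the large subunit (Mrpl) and 28 of the small subunit (Mrps), taken by symbol and not by any measured value. Subunit means the symbol throughout, in counts and sums too. Mrps18a and Mrps30 are placed in the large subunit in spite of their symbols, and Mrps36 is held to belong to another complex. RNA came from MII oocytes, eggs halted at metaphase II of meiosis, of C57BL/6 females at postnatal day 42 (6 weeks). One group of 4 libraries was wild type (WT) and the other group of 4 carried the genotype Esrp1-/- (Esrp1_KO). ESRP1 is an RNA-binding protein known for its control of alternative splicing in epithelial cells. Each tube of 15 oocytes gave a library by Smart-seq2, a full-length method that primes on poly(A) tails. The labels name no deleted exon, promoter or Cre line behind Esrp1-/- and do not say whether tubes share an animal. The p-values below therefore rest on tube-to-tube spread, which may be technical. The question here is whether the genotypes differ in these messengers.

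The mitochondrial ribosome translates the few messenger RNAs of the mitochondrial genome, all of which encode subunits of the respiratory chain and ATP synthase. Its ribosomal RNAs are transcribed inside the organelle, whereas all of its proteins are encoded in the nucleus, made on cytosolic ribosomes and imported. Many of these proteins descend from bacterial ribosomal proteins, and others have no bacterial counterpart and form the protein-rich outer shell. The small subunit decodes the messenger and the large subunit joins amino acids. The mature oocyte holds a very large store of mitochondria and is largely silent in transcription, so its RNA levels reflect synthesis during growth and later decay. Because the libraries were primed on poly(A) tails, the values can also depend on tail length, which was not measured.

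Levels are given in FPKM, fragments scaled to gene length and library size, and are relative to the library total. An FPKM of 1 in a gene of 1 kb stood for 24.9 to 32.3 reads, depending on the library, with implied totals of 25018182 to 28932109 reads in WT and 24910433 to 32337966 in Esrp1_KO. In pooled oocytes, fewer cells and less RNA per cell cannot be told apart. The targeted gene Esrp1 measured 17.1, 17.2, 19.5 and 16.2 FPKM in WT replicates 1 to 4 and 3.62, 3.43, 2.31 and 3.83 in Esrp1_KO replicates 1 to 4. The groups were apart, and a residue of Esrp1 RNA was present in every Esrp1_KO library. All 12 oocyte markers passed the filter of a mean of at least 1 FPKM, and their sum was 16194 to 20492 FPKM in WT and 19805 to 26577 in Esrp1_KO. The 14 granulosa and cumulus cell markers summed to 9.38 to 12.2 FPKM in WT and 4.28 to 5.69 in Esrp1_KO, with Cyp11a1, Ptx3, Tnfaip6, Fshr and Fst at 0 in all WT libraries. That difference lay in Cyp19a1 (means of 6.10 and 1.87) and Kitl (3.27 and 1.83), the only 2 of these markers that passed the filter. Both were called lower at a limma adjusted p under 0.05, as were 23.1% of all genes tested. Ptgs2, far below the filter, was higher in Esrp1_KO with groups apart (0.0751 and 0.316), so not every marker moved the same way. The 4 theca and stroma markers summed to 0.226 to 0.989 in WT and 1.98 to 2.33 in Esrp1_KO, nearly all of it Dcn (means of 0.665 and 2.12). The 9 blood and immune markers summed to 0.367 to 1.63 in WT and 0.626 to 9.17 in Esrp1_KO, with replicate 3 the highest. The part of these other cells in the results was not tested.

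Promoters of the family are shown here because genes of the mitochondrial ribosome are known to share binding motifs of nuclear factors that serve mitochondrial genes. RefSeq (GRCm38.p6) gave a promoter, 250 bases before to 50 bases after a start, for 68 of the 76 genes, 74 promoters in all. On either strand, CCGGAAG, the core bound by the ETS family that includes GABP, occurred in 25 of the 68 genes (36.76%), against 9.93% of the 27025 genes with a promoter. The full palindrome of NRF1, in capitals in the Mrpl9 window below, occurred in 3 (4.41%, against 1.07%), and the long YY1 motif in 5 (7.35%, against 0.75%). The CCAAT box of NF-Y occurred in 26 (38.24%), a share close to the 41.06% of all genes. No matches of these motifs overlapped each other in the family. The background is every gene with a promoter, not matched to the family in kind or base content, so the shares are not of like genes. A match describes letters and not a bound site.

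The windows below, 60 bases of the plus strand of GRCm38 written 5′ to 3′ with the motif in capitals, come from genes whose values are given further on. All lie upstream of the first annotated base of the gene in GENCODE M21. The Mrpl9 window (chr3:94443258-94443317) carries the NRF1 palindrome and that of Mrpl34 (chr8:71464862-71464921) the ETS core. Those of Mrps9 (chr1:42851119-42851178), Mrpl2 (chr17:46646169-46646228) and Mrps31 (chr8:22411278-22411337) carry a CCAAT box, which in Mrpl2 and Mrps31 is read on the opposite strand.
Mrpl9: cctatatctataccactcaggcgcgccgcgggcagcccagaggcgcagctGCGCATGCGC
Mrpl34: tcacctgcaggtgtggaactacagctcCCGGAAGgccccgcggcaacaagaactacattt
Mrps9: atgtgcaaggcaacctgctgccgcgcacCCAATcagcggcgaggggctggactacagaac
Mrpl2: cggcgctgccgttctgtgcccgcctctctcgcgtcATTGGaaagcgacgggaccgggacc
Mrps31: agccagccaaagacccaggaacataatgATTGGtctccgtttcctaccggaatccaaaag

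The mature egg held transcripts of the family at levels that spanned several orders of magnitude. Over all 8 libraries, Mrpl means ran from 0.0018 FPKM (Mrpl33) to 26.8 (Mrpl10) with a median of 1.33, and Mrps means from 0.0429 (Mrps10) to 20.6 (Mrps33) with a median of 1.27. A mean of at least 10 FPKM was reached by 10 Mrpl and 4 Mrps genes, while 20 Mrpl and 13 Mrps genes stayed below 1 FPKM. Levels were unevenly spread over the genes. The 4 most abundant genes held 33.25% of the Mrpl sum and 53.23% of the Mrps sum. The 71 cytosolic ribosomal protein genes listed, which leave out Rpl3 to Rpl9, had a median of 0.773 FPKM, and 39 of them lay below 1.

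**Figure D1:**
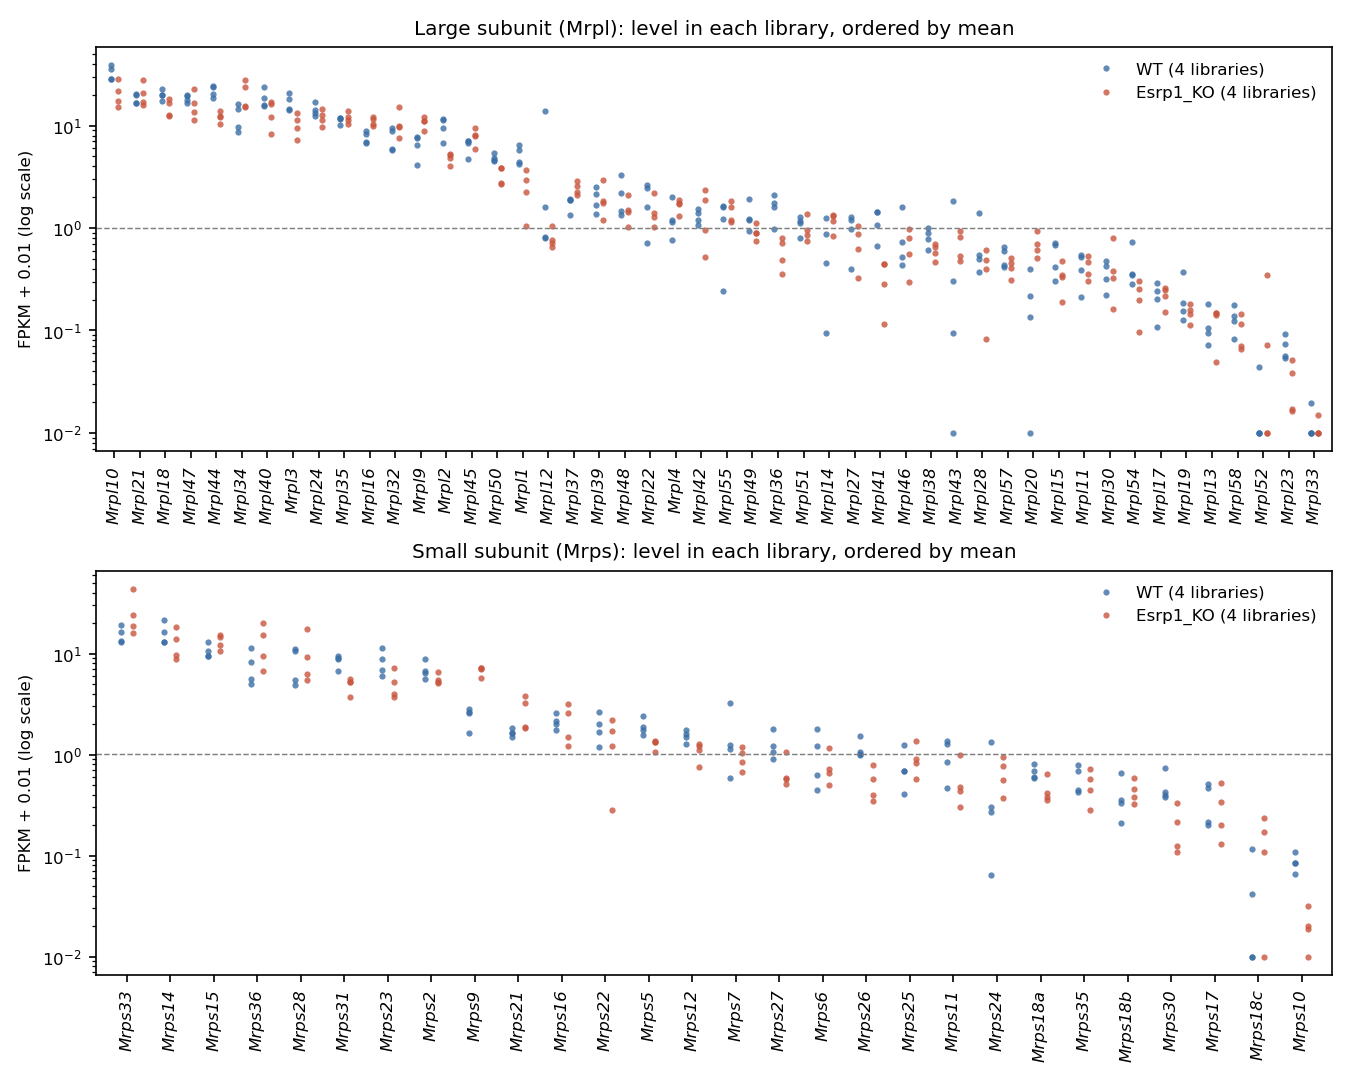
Level of each large subunit gene (upper panel) and small subunit gene (lower panel) in each library, as FPKM plus 0.01 on a log scale, with 1 point per library (4 WT in blue, 4 Esrp1_KO in red) and genes ordered by their mean over 8 libraries. The dashed line marks 1 FPKM, the filter of the test, which 28 Mrpl and 15 Mrps genes passed.

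In the large subunit the 4 highest levels by FPKM belonged to Mrpl10, Mrpl21, Mrpl18 and Mrpl47. Mrpl10, the protein that ties the flexible stalk to the subunit, led with 35.6, 28.6, 28.4 and 38.7 FPKM in WT replicates 1 to 4. Mrpl21 measured 16.6, 20.6, 19.7 and 16.7 FPKM in WT and 15.9, 27.97, 20.96 and 17.02 in Esrp1_KO, so that the groups overlapped (log2 fold change 0.12 ± 0.18 SE, limma adjusted p = 0.63). Mrpl18, a relative of the bacterial protein that binds 5S rRNA, measured 20.1, 19.7, 22.6 and 17.6 FPKM in WT and 12.8, 16.8, 18.1 and 12.3 in Esrp1_KO (log2 fold change -0.41 ± 0.15 SE, limma adjusted p = 0.0616). Only Esrp1_KO replicate 3 of Mrpl18 reached the WT range. Mrpl47 measured 16.6, 19.5, 19.8 and 17.7 FPKM in WT and 11.3, 22.8, 16.7 and 13.5 in Esrp1_KO, with Esrp1_KO replicate 2 above and replicate 1 below all others (log2 fold change -0.23 ± 0.19 SE, limma adjusted p = 0.388). In Mrpl47, 23.27% of the 50-base stretches also occur in other genes. Mrpl21, Mrpl18, Mrpl47 and Mrpl44, the fifth, had means of 16.96 to 19.4 FPKM, a range smaller than the spread of each between libraries.

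In the small subunit the order by FPKM was Mrps33, Mrps14, Mrps15 and Mrps36. Mrps33, a protein with no bacterial counterpart, measured 13.3, 19.2, 16.5 and 13.2 FPKM in WT and 15.8, 43.4, 24.1 and 18.97 in Esrp1_KO (log2 fold change 0.60 ± 0.28 SE, limma adjusted p = 0.118). The value of Esrp1_KO replicate 2 was the highest of the whole family in any library. Mrps14, a head protein kept from bacteria, measured 13.03, 21.4, 16.3 and 13.05 FPKM in WT and 9.61, 18.5, 13.8 and 8.78 in Esrp1_KO (log2 fold change -0.34 ± 0.24 SE, limma adjusted p = 0.298). Mrps15 measured 9.43, 12.96, 9.505 and 10.6 FPKM in WT and 10.6, 15.3, 14.7 and 12.03 in Esrp1_KO (log2 fold change 0.28 ± 0.15 SE, limma adjusted p = 0.181). Mrps36, which is now held to be a component of the 2-oxoglutarate dehydrogenase complex more than a ribosomal protein, measured 4.94, 11.2, 8.25 and 5.59 FPKM in WT and 6.72, 20.1, 15.2 and 9.47 in Esrp1_KO (log2 fold change 0.66 ± 0.33 SE, limma adjusted p = 0.144). In all of these genes the groups overlapped, and in Mrps33, Mrps14 and Mrps36 replicates 2 and 3 lay above replicates 1 and 4 within both groups. The means of Mrps14, Mrps15 and Mrps36 differed by less than their spread between libraries.

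Length bears on the order of the levels and on the low ones. FPKM divide by all exons of a gene, which in 19 family members exceed the principal transcript more than 2-fold. In Mrps9 the exons cover 5763 bases and the principal transcript 1418, in Mrpl33 they cover 7326 and 478, and in Mrps10 8079 and 1018. As a second measure, the reads of all exons were divided by the length of the principal transcript. Reads outside that transcript are counted in full, so these values are upper limits, and the order they give is not settled. Per kilobase of principal transcript, Mrps9 stood at 18.7, near the top of its subunit, and 21 in place of 29 of the 69 genes with recovered reads were below 1. Among genes with recovered reads, Mrpl21 (34.3) then stood above Mrpl10 (26.8). Mrpl3 (22.9), Mrpl47 (22.6) and Mrpl24 (22.1) stood above Mrpl18 (20.1). In the small subunit Mrps33 (31.0) remained first, and Mrps15 (21.5) and Mrps9 stood above Mrps36 (18.5) and Mrps14 (15.5). Mrpl33 remained the lowest, at 0 to 2 reads in any library. Genes that every ribosome needs were among those near 0, so a low value here is a low reading and does not show that the protein is missing.

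Across all genes that passed the filter, limma called 36.9% changed at an adjusted p under 0.05, 13.9% higher and 23.1% lower in Esrp1_KO, and the median log2 fold change was -0.06. Of the 76 family members 43 passed that filter, and 11 were called (25.58%), 3 higher and 8 lower. The share is below the background, so the family is not singled out by its count. In Mrpl, 2 of 28 tested rose, 7 fell and 19 did not pass (32.14% called). In Mrps, 1 of 15 rose, 1 fell and 13 did not pass (13.33% called). The median log2 fold change of those tested was -0.19 in Mrpl and -0.25 in Mrps. Without Esrp1_KO replicate 1 these were -0.0751 and -0.077, and without WT replicate 1 -0.0926 and -0.0295. Over every member, tested or not, it was -0.077 in Mrpl and -0.13 in Mrps against -0.0092 for all genes listed. Of the genes listed 16839 lay below 1 FPKM, where log2(FPKM + 1) holds changes near 0, so these medians are not of like genes. Scaling with TMM moved the median of all genes tested by 0.12, from -0.06 to 0.06. It also moved the median of Mrpl from -0.19 to -0.074 and that of Mrps from -0.25 to -0.12. TMM rescales whole libraries, so family and background moved together, and the family medians stayed below that of all genes. The split of all calls depends on that scaling, with 1111 higher and 1850 lower as reported and 1598 higher (19.9%) and 1436 lower (17.9%) under TMM, 37.8% in all.

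**Figure D2:**
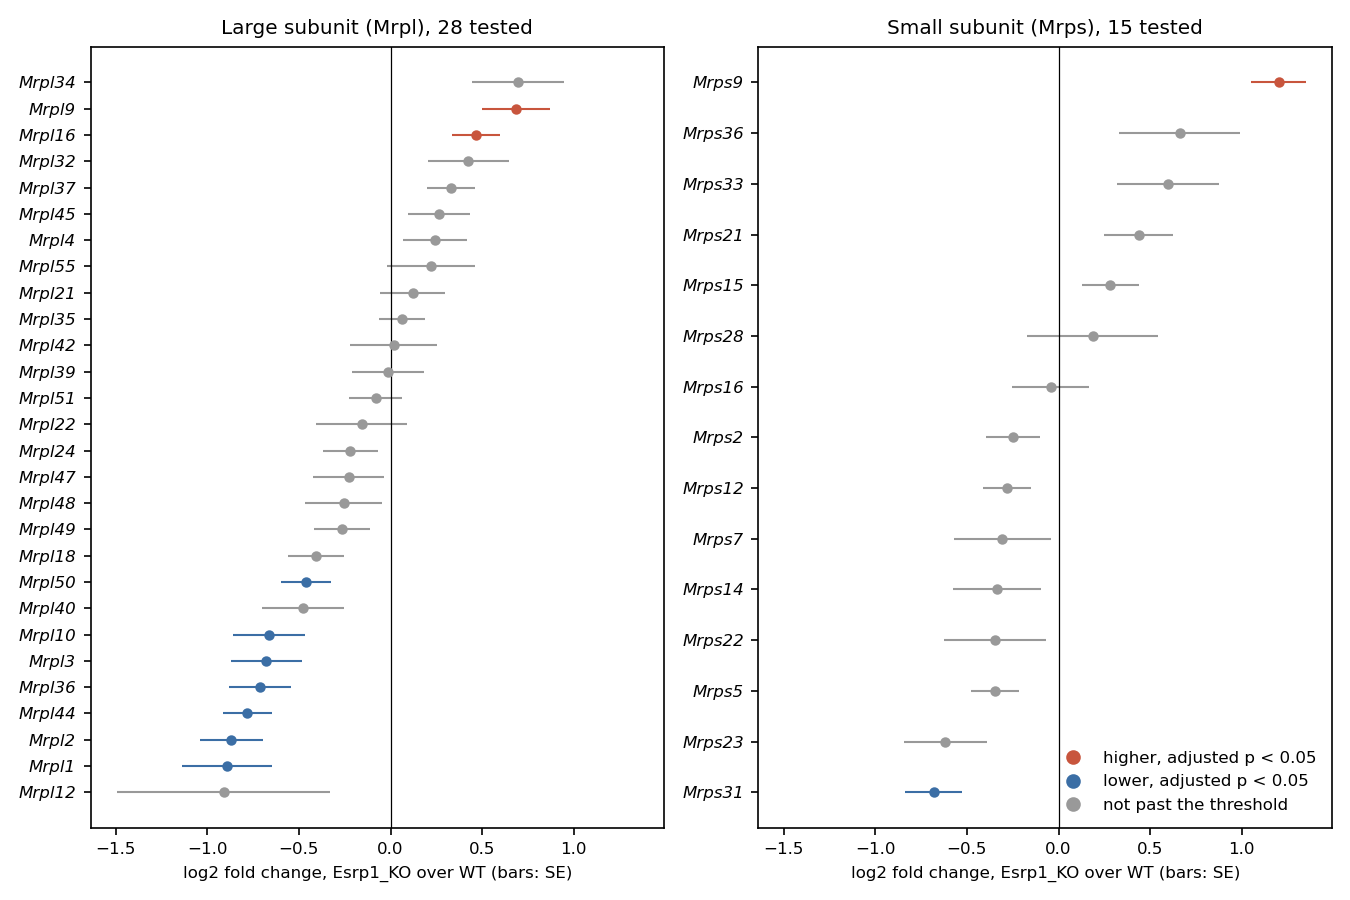
Log2 fold change of Esrp1_KO over WT on log2(FPKM + 1) for the 28 Mrpl genes (left) and 15 Mrps genes (right) that passed the filter, with SE as bars and n = 4 libraries a group. Red and blue mark genes past an adjusted p of 0.05, and Mrps9 at 1.20 lies farthest from 0 of the genes shown on this scale.

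Labels number the replicates 1 to 4 in both groups, and same-numbered libraries deviated together. The labels do not state that they are pairs, so the block used here is an assumption. With the replicate number as a block, 4 Mrpl genes were called higher and 8 lower, and in Mrps 3 higher and 3 lower, against a background of 42.5% called, 17.2% higher and 25.3% lower. The genes gained in the large subunit were Mrpl34 (blocked limma adjusted p = 0.00195), Mrpl18 (0.0272) and Mrpl32 (0.0392), of which Mrpl18 was lower. Those gained in the small subunit were Mrps36 (0.00473) and Mrps33 (0.0203), both higher, and Mrps23 (0.00373) and Mrps14 (0.0478), both lower. The blocked fit removes the level shared by same-numbered libraries, and the fold changes are the same.

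Among the 7 large subunit genes that fell, Mrpl1 and Mrpl2 had the largest falls on the log2(FPKM + 1) scale, and Mrpl36, a low gene whose change that scale understates, the lowest ratio of Esrp1_KO to WT means in FPKM (0.362, against 0.472 for Mrpl1 and 0.493 for Mrpl2). Mrpl1 (ENSMUSG00000029486, chr5:96209493-96266727, GRCm38), which forms the mobile stalk beside the exit site of the transfer RNAs, measured 4.40, 6.51, 4.18 and 5.79 FPKM in WT and 1.03, 3.65, 2.92 and 2.25 in Esrp1_KO. No Esrp1_KO value reached the WT range, and replicate 1 was the lowest. Its mean went from 5.22 ± 1.11 to 2.46 ± 1.11 FPKM (SD, n = 4 each), a log2 fold change of -0.89 ± 0.25 SE with a limma adjusted p of 0.0185. Mrpl2 (ENSMUSG00000002767, chr17:46646229-46650139), whose bacterial relative lies close to the peptidyl transferase centre, measured 11.2, 6.70, 11.6 and 9.57 FPKM in WT and 5.18, 4.80, 5.28 and 3.99 in Esrp1_KO. The Esrp1_KO values lay close together and below every WT value, the nearest being WT replicate 2. The mean went from 9.77 ± 2.23 to 4.81 ± 0.586 FPKM (log2 fold change -0.87 ± 0.17 SE, limma adjusted p = 0.00356). The CCAAT box shown above for Mrpl2 starts at position -33 from the RefSeq start.

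Mrpl44 (ENSMUSG00000026248, chr1:79776018-79781445), a protein with the fold of RNase III and no counterpart in the bacterial ribosome, had the smallest adjusted p of the large subunit. It measured 24.2, 18.6, 20.4 and 23.7 FPKM in WT and 12.4, 13.8, 12.2 and 10.4 in Esrp1_KO. No Esrp1_KO value came near the WT range. The WT mean of 21.7 ± 2.67 compares with 12.2 ± 1.41 FPKM in Esrp1_KO (log2 fold change -0.78 ± 0.13 SE, limma adjusted p = 0.00158). Mrpl36 (ENSMUSG00000021607, chr13:73328513-73332178), a very small zinc-binding protein, stood just above the filter and measured 1.73, 2.10, 0.979 and 1.61 FPKM in WT and 0.346, 0.795, 0.481 and 0.701 in Esrp1_KO. Groups were apart, on 32 to 61 reads a library in WT and 13 to 23 in Esrp1_KO. The means were 1.604 ± 0.467 and 0.581 ± 0.204 FPKM (log2 fold change -0.71 ± 0.17 SE, limma adjusted p = 0.00865).

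Mrpl3 (ENSMUSG00000032563, chr9:105053239-105079888), a core protein kept from bacteria that reaches toward the catalytic centre, measured 18.1, 14.1, 14.6 and 20.99 FPKM in WT and 13.3, 11.2, 7.17 and 9.56 in Esrp1_KO. A small gap between WT replicate 2 and Esrp1_KO replicate 1 kept the groups apart. Means were 16.9 ± 3.24 and 10.3 ± 2.59 FPKM (log2 fold change -0.68 ± 0.19 SE, limma adjusted p = 0.0215). Mrpl10 (ENSMUSG00000001445, chr11:97041560-97049213) fell from the WT values given above to 28.6, 15.3, 17.4 and 21.7 FPKM in Esrp1_KO. Esrp1_KO replicate 1 lay within the WT range, so this was the one called member whose groups overlapped. The log2 fold change was -0.66 ± 0.20 SE with a limma adjusted p of 0.025, and 14.05% of its exons overlap the gene Gm11574 on the other strand, which a method without strand cannot separate. Mrpl50 (ENSMUSG00000044018, chr4:49512596-49521093), special to mitochondria, measured 4.54, 5.39, 4.60 and 4.84 FPKM in WT and 2.66, 3.85, 3.81 and 2.76 in Esrp1_KO. All Esrp1_KO values lay below WT, and the change was the smallest of the 7 falls (log2 fold change -0.46 ± 0.14 SE, limma adjusted p = 0.0253). The calls of Mrpl3, Mrpl10 and Mrpl50 were lost in 7 of 21, 7 of 21 and 8 of 20 alternatives, and all 3 were lost without WT replicate 4, at limma adjusted p-values of 0.0627, 0.071 and 0.0598.

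Both large subunit genes that rose descend from bacterial proteins. Mrpl9 (ENSMUSG00000028140, chr3:94443318-94451130) measured 7.66, 4.13, 6.47 and 7.61 FPKM in WT and 12.3, 11.1, 8.83 and 10.98 in Esrp1_KO. The groups were apart, and WT replicate 2 was the lowest. Its mean went from 6.46 ± 1.65 to 10.8 ± 1.43 FPKM (log2 fold change 0.68 ± 0.19 SE, limma adjusted p = 0.0166), and it is the one of the 11 called genes with the NRF1 palindrome in its promoter. Mrpl16 (ENSMUSG00000024683, chr19:11770391-11774960), whose bacterial relative helps place transfer RNA, measured 8.31, 8.91, 6.68 and 6.84 FPKM in WT and 12.1, 11.6, 10.4 and 9.80 in Esrp1_KO. The groups were apart (7.68 ± 1.097 and 10.97 ± 1.05 FPKM, log2 fold change 0.47 ± 0.13 SE, limma adjusted p = 0.02). In limma the call did not hold when WT replicate 3 or WT replicate 4 was left out, with adjusted p-values of 0.0583 and 0.0625.

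**Figure D3:**
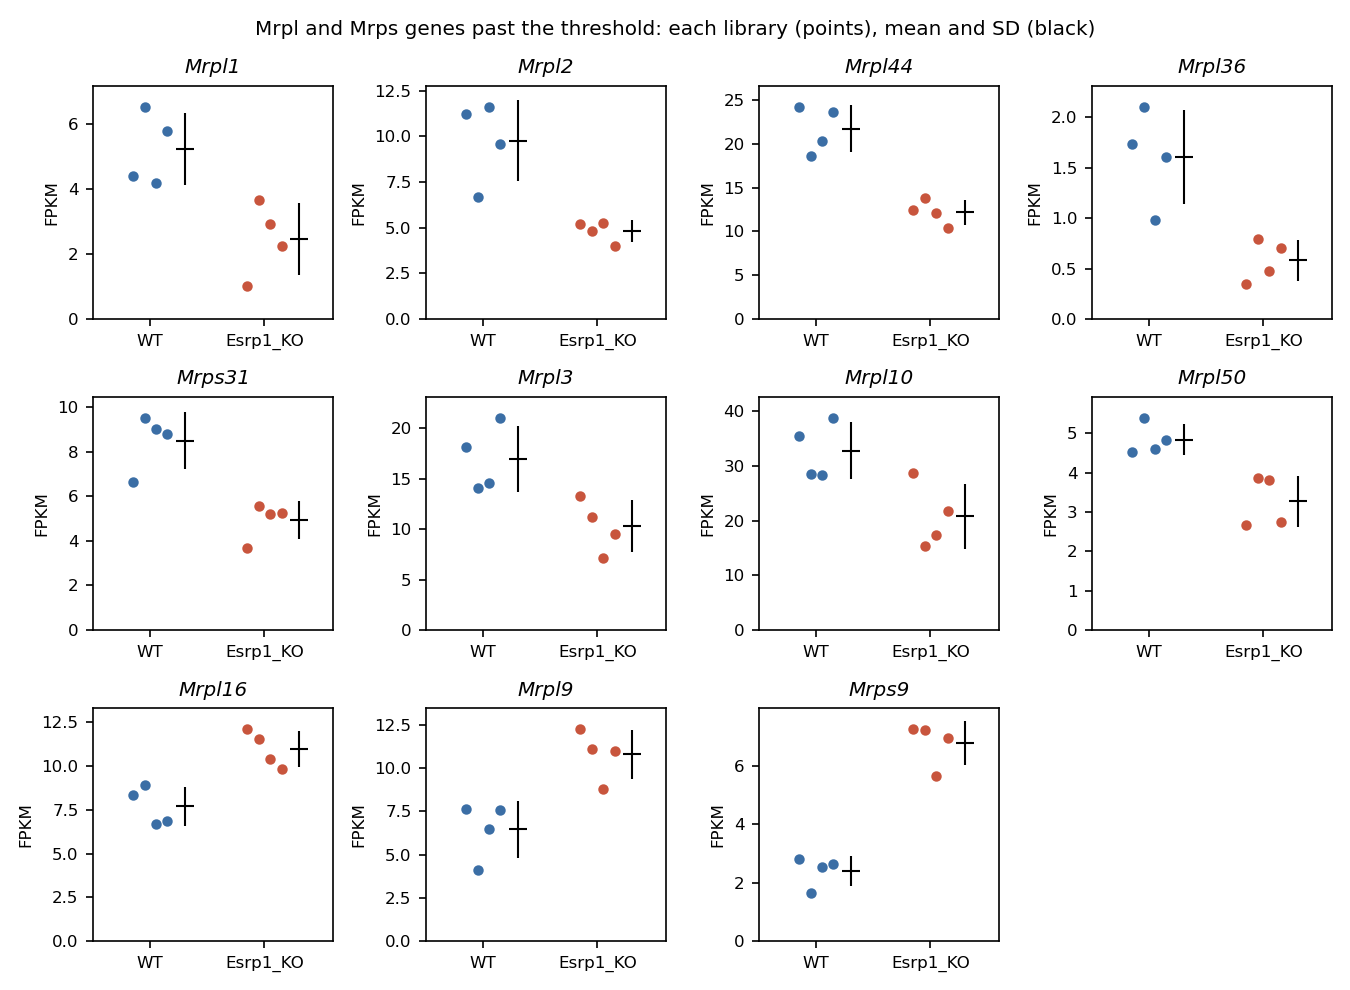
FPKM of the 11 called genes in each library (points, 4 WT in blue and 4 Esrp1_KO in red), with the mean and SD of each group in black and axes from 0. The groups are apart in 10 genes and overlap in Mrpl10, where WT replicate 3 at 28.4 lies just below Esrp1_KO replicate 1 at 28.6.

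Mrpl34 and Mrpl12 had the largest log2(FPKM + 1) changes of the large subunit that did not pass. Mrpl34, a small basic protein kept from bacteria, measured 9.62, 16.3, 14.6 and 8.71 FPKM in WT and 15.4, 28.04, 24.03 and 15.1 in Esrp1_KO (log2 fold change 0.70 ± 0.25 SE, limma adjusted p = 0.055, and 0.00195 with the block). Every Esrp1_KO value exceeded the WT value of the same replicate number, but the groups overlapped, since WT replicate 2 lay above Esrp1_KO replicates 1 and 4. Under TMM scaling its limma adjusted p was 0.0287, and its promoter holds the ETS core at position -37 shown above. Mrpl12, the stalk protein that also binds the mitochondrial RNA polymerase, measured 0.817, 13.9, 1.5998 and 0.790 FPKM in WT and 0.707, 1.05, 0.752 and 0.646 in Esrp1_KO. A single library, WT replicate 2 with 534 reads, made the mean difference (log2 fold change -0.91 ± 0.58 SE, limma adjusted p = 0.249), which was -0.19 without it (limma adjusted p = 0.411).

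On log2(FPKM + 1), Mrps9 rose further than any other of the 43 members tested. Mrps9 (ENSMUSG00000060679, chr1:42851233-42905683), kept from bacteria, sits in the head of the small subunit and its tail reaches the P site, where the growing chain is held. It measured 2.80, 1.64, 2.55 and 2.65 FPKM in WT and 7.27, 7.23, 5.67 and 6.97 in Esrp1_KO. The lowest Esrp1_KO value was well above the highest WT value, on 236 to 442 reads a library in WT and 937 to 1355 in Esrp1_KO. Mean levels went from 2.41 ± 0.525 to 6.79 ± 0.754 FPKM, a 2.82-fold rise (log2 fold change 1.20 ± 0.15 SE, limma adjusted p = 0.000283). It was called in all 20 alternatives that could test it, with a highest limma adjusted p of 0.0181. Its exons share no 50-base stretch with another gene, and its CCAAT box starts at position -86.

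Mrps31 was the small subunit gene that fell. Mrps31 (ENSMUSG00000031533, chr8:22411361-22429665), a head protein special to mitochondria, measured 6.65, 9.51, 9.03 and 8.80 FPKM in WT and 3.68, 5.57, 5.21 and 5.27 in Esrp1_KO. The groups were apart, with replicate 1 the lowest in both. The mean went from 8.50 ± 1.27 to 4.93 ± 0.848 FPKM (log2 fold change -0.68 ± 0.16 SE, limma adjusted p = 0.00731). Mrps5 and Mrps12, the latter a protein of decoding accuracy, also had all Esrp1_KO values below WT but did not pass (limma adjusted p = 0.0634 and 0.125). Of the 43 members tested, 4 had all Esrp1_KO values above WT and 9 had all below, where 13.5% and 23.3% of all genes tested did (36.8% in all).

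The members can also be grouped by origin. Of the 46 kept from bacteria 28 were tested, and 3 were called higher and 5 lower (28.57%, where 36.9% of all genes were called), with a median log2 fold change of -0.19. Of the 30 members special to mitochondria 15 were tested, and limma called 0 higher and 3 lower, namely Mrpl44, Mrpl50 and Mrps31 (20%), with a median of -0.26. At an unadjusted p under 0.05 limma had 1 higher among these, and voom on recovered reads called 0 higher. The difference between these classes was not tested. In the head of the small subunit Mrps9 rose and Mrps31 fell. Mrpl45, which anchors the ribosome to the inner membrane, measured 4.67 to 7.06 FPKM in WT and 5.92 to 9.51 in Esrp1_KO (log2 fold change 0.26 ± 0.17 SE, limma adjusted p = 0.252).

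The 33 members below the filter were not tested in that fit. Just inside it was Mrpl51 at a mean of 1.03 FPKM and just outside were Mrps27 at 0.9497 and Mrpl14 at 0.909. In 6 of the 33 (18.2%) the groups were apart, against 9.77% of all genes below the filter (3.28% higher and 6.49% lower). That background holds many genes at or near 0, since 15201 to 20047 of the 24860 genes listed were above 0 in a library. Genes at 0 in libraries of both groups cannot be apart, so the shares are not of like genes. Mrpl20 measured 0.205, 0, 0.384 and 0.125 FPKM in WT and 0.502, 0.603, 0.692 and 0.935 in Esrp1_KO, which are 0 to 18 and 25 to 44 reads and a ratio of means of 3.83. The other 5 were lower in Esrp1_KO. Mrpl41 measured 1.07, 1.44, 1.44 and 0.662 FPKM in WT and 0.104, 0.271, 0.432 and 0.438 in Esrp1_KO, on 3 to 11 reads in the latter. Mrps26 had means of 1.15 and 0.518 FPKM, and Mrps30, which despite its symbol is placed in the large subunit, 0.474 and 0.185. Mrpl23, at the exit of the polypeptide tunnel, gave 6 to 10 reads in WT and 1 to 5 in Esrp1_KO, and Mrps10 gave 13 to 21 and 0 to 5. With no filter, limma called Mrpl20 higher (adjusted p = 0.0383) and Mrpl41 (adjusted p = 0.0273) and Mrps10 (adjusted p = 0.00993) lower, where 12.2% of all genes were called, 4.12% higher and 8.07% lower.

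The paralogs Mrps18a, Mrps18b and Mrps18c, of which a mammalian mitochondrial ribosome uses different copies at different places, were all below the filter. Mrps18a, whose product is found in the large subunit, measured 0.801, 0.672, 0.597 and 0.581 FPKM in WT and 0.411, 0.631, 0.369 and 0.345 in Esrp1_KO. Mrps18b measured 0.345, 0.651, 0.323 and 0.199 FPKM in WT and 0.444, 0.577, 0.317 and 0.372 in Esrp1_KO, and 30.54% of its exons overlap other genes. Mrps18c gave 0 to 3 reads in WT libraries and 0 to 6 in Esrp1_KO. Mrps18a was the highest of the 3 in every WT library, while in Esrp1_KO Mrps18a and Mrps18b were alike and changed order between libraries.

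The summed levels of each subunit overlapped between the groups, while those of the mitochondrial messengers did not. The 48 Mrpl genes summed to 264, 269, 257 and 253 FPKM in WT and 205, 268, 228 and 204 in Esrp1_KO, an Esrp1_KO mean of 0.867 of the WT mean, with Esrp1_KO replicate 2 inside the WT range. The 28 Mrps genes summed to 92.0, 123, 107 and 87.3 FPKM in WT and 82.3, 159.8, 116 and 88.1 in Esrp1_KO, a ratio of 1.09 with overlapping groups and, without Esrp1_KO replicate 2, of 0.934. The Mrpl sum was 2.59 ± 0.354 times the Mrps sum in WT and 2.11 ± 0.360 times in Esrp1_KO (SD, n = 4 each), and these ranges overlapped as well.

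In the same libraries the 13 messengers of the mitochondrial genome, which this ribosome translates, summed to 14533 ± 758 FPKM in WT and 2928 ± 912 in Esrp1_KO, a ratio of 0.202. The 2 mitochondrial rRNAs, the RNA core of the ribosome, summed to 2333 ± 228 and 1416 ± 561 FPKM, and overlapped, with Esrp1_KO replicate 2 at 2070 above WT replicate 4 at 2013. Of these, mt-Rnr2 fell (log2 fold change -0.79 ± 0.24 SE, limma adjusted p = 0.0274) and mt-Rnr1 had a log2 fold change of -0.87 ± 0.38 SE that did not pass (limma adjusted p = 0.0975). Priming on poly(A) samples ribosomal RNA unevenly. Of the 15 transcripts of the mitochondrial genome tested, limma called 14 lower (93.33%, against 23.1% of all genes tested) and 0 higher (against 13.9%). At an unadjusted p under 0.05 and by voom 0 were higher as well.

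**Figure D4:**
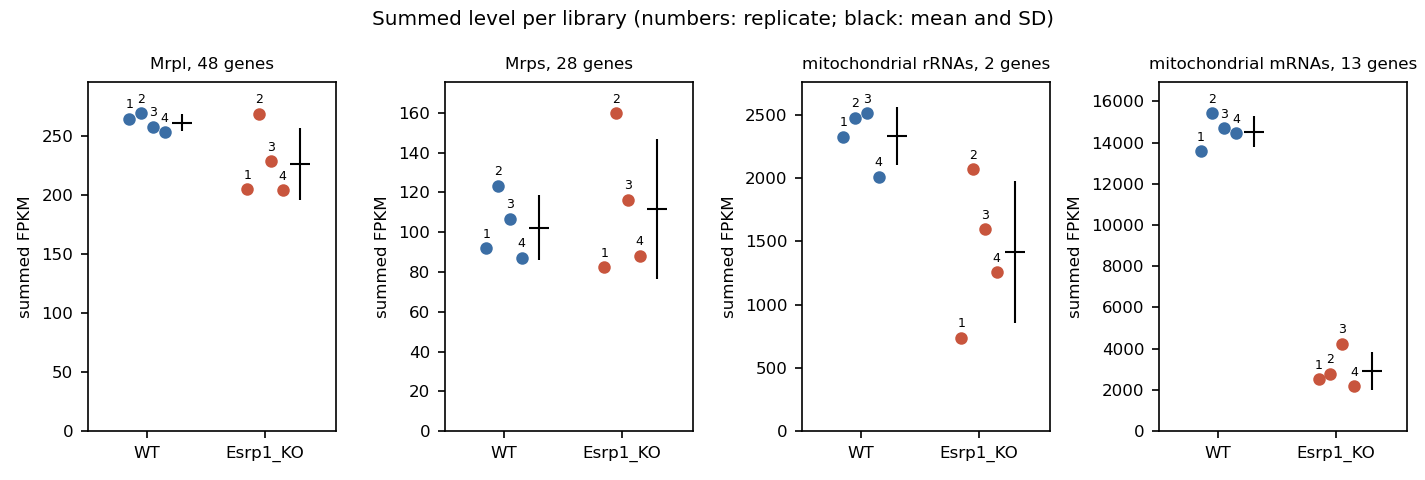
Summed FPKM per library of the 48 Mrpl genes, 28 Mrps genes, 2 mitochondrial rRNAs and 13 mitochondrial mRNAs, with the replicate number above each point, group mean and SD in black, and axes from 0. The WT and Esrp1_KO libraries overlap in the first 3 panels and are apart in the last, 13578 to 15418 FPKM against 2173 to 4243.

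Much of the spread within groups was shared between family members. In 14 of the 43 genes tested (32.6%), replicates 2 and 3 were both above replicates 1 and 4 in WT and again in Esrp1_KO, against 10.3% of all genes tested. In Mrps this held for 8 of 15 genes (53.3%), Mrps5, Mrps12, Mrps14, Mrps22, Mrps23, Mrps28, Mrps33 and Mrps36, and in Mrpl for 6 of 28 (21.4%), Mrpl12, Mrpl21, Mrpl34, Mrpl42, Mrpl47 and Mrpl48. The reverse order was found in 1 of the 43, Mrpl10, against 14.7% of all genes. Mrps28 measured 4.84, 11.03, 10.6 and 5.52 FPKM in WT and 6.32, 17.5, 9.22 and 5.42 in Esrp1_KO. Mrps23, special to mitochondria, measured 6.83, 11.5, 8.83 and 5.96 FPKM in WT and 4.004, 7.18, 5.28 and 3.69 in Esrp1_KO, lower in each pair of same-numbered libraries (log2 fold change -0.62 ± 0.23 SE, limma adjusted p = 0.0571, and 0.00373 with the block). In such genes the spread between replicates was as large as the difference between genotypes. The pattern was noticed in these data and has no test here.

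The median log2 difference of same-numbered libraries shows the same spread. Over the tested Mrpl genes it was -0.39, 0.24, -0.24 and -0.11 in pairs 1 to 4, and over the tested Mrps genes -0.13, 0.089, -0.18 and -0.21. Over all genes tested it was -0.14, 0.013, -0.076 and -0.080. Pair 2 was above 0 in each of these sets, and the direction of the family median therefore differed between pairs.

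**Figure D5:**
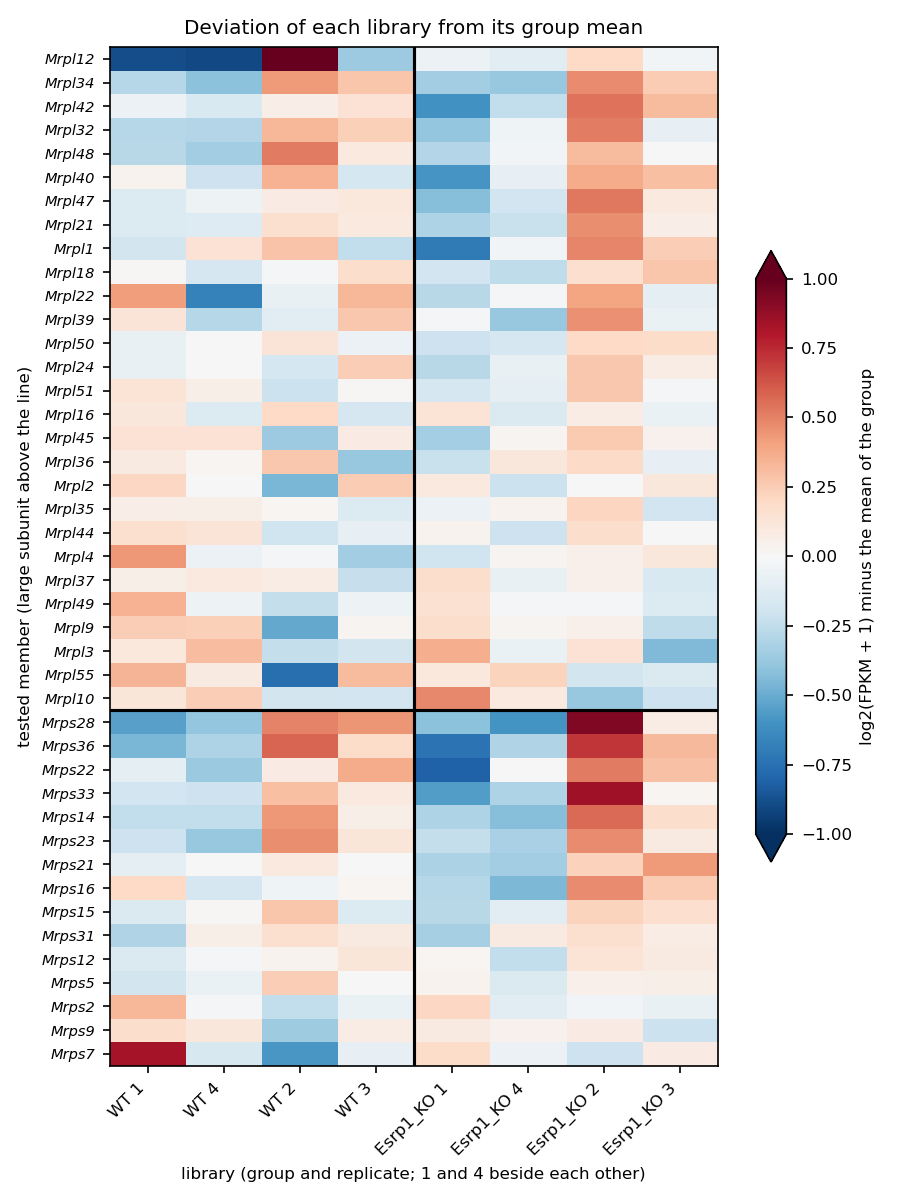
Deviation of log2(FPKM + 1) of each library (columns) from the mean of its own group, for the 43 tested genes (rows, large subunit above the line), with red above and blue below the mean and colours capped at 1. Replicates 2 and 3 are redder than 1 and 4 in both groups for many rows, most of all among the Mrps genes at the top of the lower block.

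Of the 5 mitoribosome proteins that carry other symbols, limma called 0, against 36.9% of all genes tested, and 5 genes are few for such a share. At an unadjusted p under 0.05 limma had 2 higher, and voom called 1 higher. Dap3, the GTP-binding protein of the small subunit head, measured 19.2, 15.6, 16.7 and 19.0 FPKM in WT and 26.6, 26.9, 23.7 and 18.3 in Esrp1_KO, with replicate 4 inside the WT range (log2 fold change 0.41 ± 0.15 SE, limma adjusted p = 0.0551, and 0.0436 by voom). Chchd1 measured 1.38, 1.45, 1.64 and 1.22 FPKM in WT and 1.497, 4.46, 2.57 and 2.45 in Esrp1_KO (log2 fold change 0.58 ± 0.21 SE, limma adjusted p = 0.0587, and 0.0417 with the replicate block). Under TMM scaling both passed, at limma adjusted p-values of 0.0139 for Dap3 and 0.0285 for Chchd1. Ptcd3, the small subunit protein with pentatricopeptide repeats, had means of 7.56 ± 1.013 and 6.21 ± 0.518 FPKM (limma adjusted p = 0.158). Aurkaip1 had means of 1.13 ± 0.191 and 1.64 ± 0.511 FPKM (limma adjusted p = 0.17). Gadd45gip1, of the large subunit, had means of 1.18 ± 0.214 and 1.13 ± 0.218 FPKM (limma adjusted p = 0.858), and 39.02% of its 50-base stretches occur in other genes.

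Among 27 factors of ribosome assembly and rRNA modification 14 were tested, of which limma called 4 lower and 0 higher (28.57% called, median log2 fold change -0.10, against 36.9% and -0.06 for all genes tested), with 2 higher at an unadjusted p under 0.05 and 0 by voom. Gtpbp10, a GTPase of large subunit assembly, fell from 6.39 ± 0.588 to 2.29 ± 0.385 FPKM (log2 fold change -1.17 ± 0.13 SE, limma adjusted p = 0.000142). Mettl15, which methylates 12S rRNA, fell from 18.7 ± 2.77 to 10.6 ± 0.387 FPKM (limma adjusted p = 0.00159). Fastkd2, which binds 16S rRNA, fell from 3.33 ± 0.934 to 1.62 ± 0.418 FPKM (limma adjusted p = 0.0139). Tfb1m, which dimethylates 12S rRNA, fell from 12.1 ± 2.53 to 5.96 ± 2.04 FPKM (limma adjusted p = 0.0141). In all 4 the groups were apart.

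Among 17 translation factors of the organelle 11 were tested, of which 1 rose and 4 fell (45.45% called, against 36.9% of all genes tested, with a median log2 fold change of -0.24). Mtrf1, a release factor, fell from 3.17 ± 0.265 to 1.21 ± 0.521 FPKM (log2 fold change -0.94 ± 0.18 SE, limma adjusted p = 0.00269). Tsfm, the exchange factor of elongation factor Tu, fell from 3.43 ± 0.352 to 2.09 ± 0.474 FPKM (limma adjusted p = 0.0148). Mtfmt, which formylates the initiator methionine, rose from 1.22 ± 0.120 to 2.20 ± 0.238 FPKM (log2 fold change 0.53 ± 0.12 SE, limma adjusted p = 0.00597). Of 17 aminoacyl-tRNA synthetases, which charge mitochondrial transfer RNAs, 5 were tested and 2 called (40.0%, against 36.9%), of which Vars2 rose from 1.17 ± 0.135 to 2.46 ± 0.937 FPKM (limma adjusted p = 0.0218) while Rars2 fell from 3.84 ± 0.360 to 2.25 ± 0.814 (limma adjusted p = 0.0308). The Rars2 call was lost when any single WT library or Esrp1_KO replicate 4 was left out (limma adjusted p of 0.0528 to 0.0706), with no filter, and under TMM (0.0639) and quantile scaling (0.0582). The Vars2 call was lost with no filter (limma adjusted p = 0.0632) and without WT replicate 3, WT replicate 4 or Esrp1_KO replicate 4 (0.0505 to 0.0561). The cytosolic ribosome makes the Mrpl and Mrps proteins. Of 71 genes for its proteins 32 were tested, and 4 rose and 2 fell (18.75% called, against 36.9%, with a median log2 fold change of 0.08). The symbol rule of this list left out Rpl3 to Rpl9, so these values do not cover all proteins of that ribosome. Rplp1, a stalk protein of that ribosome, rose from 7.26 ± 2.35 to 34.5 ± 13.1 FPKM (log2 fold change 2.07 ± 0.27 SE, limma adjusted p = 0.000355), and Rpl17 fell from 209 ± 21.6 to 122 ± 31.7 (limma adjusted p = 0.00841).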

How the data were processed

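The deposited values are FPKM per gene, made by the authors per the file headers, from reads on GRCm38 per the submitters' processing notes. Aligner, counter and annotation: not given in the sources used here. Genes were named by Ensembl ID in GENCODE M21, and 24812 of 24860 had a symbol. By the same rule 2 further M21 genes, Mrpl53 and Mrps34, were not analysed here. FPKM multiplied by the M21 exon length gave whole reads, within 0.02 of a read, for 90.43% of values above 0, and for 22628 genes in all libraries. For 69 of the 76 genes reads could be stated. Reads are not independent molecules.

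The 8021 genes averaging 1 FPKM or more entered a limma 3.58.1 fit (R 4.3.3) of log2(FPKM + 1) on genotype, trended by intensity. Tests were two-sided, with p-values adjusted by Benjamini-Hochberg across those genes and a threshold of 0.05. Fold changes on this scale understate those of low genes. The fit was also run on simulated data with independent noise and 200 changed genes. Libraries here deviated together by replicate number, so that run does not give the error rate of these calls. "Apart" means that all 4 values of a group lie on one side of the other 4. Alternatives changed the pseudocount, filter, scaling, trend and libraries, added the replicate block, or used voom on recovered reads, and a principal-transcript length was added after the data were seen. Same-numbered libraries deviated together, with correlations over genes of 0.226 to 0.317 in all 4 pairs. The labels state no pairing, and differently numbered libraries were not set beside these values. Treating the numbers as pairs in the block is therefore an assumption.

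The members, lists, origin classes and motifs were chosen with earlier results of these data known. Named were, in each subunit, up to 8 called genes in either direction and the 4 highest in level, the Mrps18 paralogs, the proteins under other symbols, and up to 3 called genes of each other list with the smallest p. Further genes were named after seeing their values, such as Mrpl12, Mrpl34, Mrps23, Mrps28, Mrpl45, Tfb1m and those below the filter. Shared 50-base stretches and exon overlap with other genes were computed from M21, and 9 members exceed 20% shared, none of them among the 11 called.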

Additional observations from a re-analysis of the deposited data

Results flagged for a closer look

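Within groups of 4, a library was taken as standing apart when its gap to the nearest value exceeded Dixon's critical share of the group's range, which chance gives in about 1 of 20 groups. Of 92 groups looked at, which did not take in all members below the filter, 4 met this. Mrpl43, below the filter and not among them, stood at 1.81 FPKM in WT replicate 1 against 0 to 0.293 in the other WT libraries. WT replicate 1 also had the most genes above 0, 20047, against 15201 to 18100 in the other libraries. What sets that library apart was not tested. The 4 flagged groups are as follows. Mrpl12 stood at 13.9 FPKM in WT replicate 2 against 0.790 to 1.5998 in the other WT libraries. Mrpl45 stood at 4.67 FPKM in WT replicate 2, below 6.70 to 7.06 in the others. Mrpl37, a large subunit protein special to mitochondria, stood at 1.33 FPKM in WT replicate 3, below 1.85 to 1.92. Mrps5 stood at 1.05 FPKM in Esrp1_KO replicate 4, below 1.32 to 1.35 in the other Esrp1_KO libraries.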

How the results depend on the processing

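Over 880 alternative values of the 43 tested members, 816 stayed on their side of the threshold, 33 calls in 10 genes were lost and 31 in 10 genes gained, and 0 of the 11 called genes changed direction. The cause of these moves was not tested. Mrpl genes called higher, 2 as reported, were 4 with TMM, quantile or median-ratio scaling and with the replicate block, 1 in replicates 2 and 3 alone and by voom, and 1 to 3 when 1 library was left out (1 without WT replicate 3 or 4). Mrpl genes called lower, 7 as reported, were 4 with no filter or a mean of at least 5 FPKM, 1 in replicates 2 and 3 alone, and 4 to 7 with 1 library left out (4 without WT replicate 4). Mrps genes called higher, 1 as reported, were 0 at 5 FPKM, 2 with quantile scaling or in replicates 2 and 3 alone, 3 with the replicate block, and 1 to 3 with 1 library left out (3 without Esrp1_KO replicate 1). Mrps genes called lower, 1 as reported, were 2 with no filter or by voom, 3 with a common nuclear total or the replicate block, and 1 to 2 with 1 library left out (2 without WT replicate 4 or Esrp1_KO replicate 2). The Mrpl median of -0.19 was -0.0474 in replicates 2 and 3 alone and ranged from -0.28 to -0.0751 with 1 library left out (-0.0751 without Esrp1_KO replicate 1, -0.0926 without WT replicate 1, -0.106 without WT replicate 3). The Mrps median of -0.25 was -0.031 at 5 FPKM and -0.0345 in replicates 2 and 3 alone, and ranged from -0.25 to -0.0295 with 1 library left out (-0.0295 without WT replicate 1, -0.077 without Esrp1_KO replicate 1). Of all genes, 1111 higher became 668 at 5 FPKM, 676 in replicates 1 and 4 alone and 584 in replicates 2 and 3 alone, and 1850 lower became 996 at 5 FPKM and 905 in replicates 2 and 3 alone. Their median of -0.06 was 0.062 with TMM and 0.026 with quantile scaling. Calls of Mrpl1, Mrpl2, Mrpl9, Mrpl36 and Mrpl44 were lost in replicates 2 and 3 alone (limma adjusted p of 0.167, 0.117, 0.0675, 0.16 and 0.0756) and that of Mrps31 in replicates 1 and 4 alone (0.0805). The Mrpl1 call was also lost with no filter (limma adjusted p = 0.0634). That of Mrpl16 was also lost in replicates 1 and 4 alone and in replicates 2 and 3 alone (limma adjusted p of 0.111 and 0.166). Reads limit the low members, and 8 had a mean under 0.2 FPKM. With 4 tubes a group, FPKM as shares of a library and an unstranded method, neither molecules per egg nor antisense overlap can be resolved.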
